A study of Homo sapiens with 2 samples.

Results

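The protein-coding genes CPVL, TMTC2, ARHGAP15, ADCY2 and ZFHX3, were examined for contacts between Cas9 and RNA in H1-iCas9 cells, which derive from H1, an established line of human embryonic stem cells. The 5 genes, of 20050 protein-coding genes, were selected on the number of crosslink sites found at the same base in both libraries, so that number is a description and was not tested. They held 23 of the 4204 regions of replicate 1, 23 of the 5995 regions of replicate 2 and 19 of the 2443 sites that were identical in start, end and strand in the 2 libraries. Both libraries belong to 1 group: cells given doxycycline at 1 µg/ml for 24 hours to induce FLAG-tagged Cas9, crosslinked with 254 nm light at 300 mJ/cm2, with Cas9 recovered by an antibody to FLAG. The labels name no guide RNA, no clone and no separate cultures, so a difference between the libraries may be technical, and no library without Cas9 and no RNA abundance was analysed here. The cell type could not be checked against its markers, because crosslink regions are not expression levels.

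In irCLIP, ultraviolet light bonds a protein to RNA that it touches, and reverse transcription tends to end next to the bonded base. Cas9 is a bacterial nuclease that binds a guide RNA, and contacts with other RNAs are read from such positions. A gene's pre-mRNA carries the sequence of the gene's own strand, so a site on the opposite strand, if the deposited strand is that of the RNA, lies on RNA complementary to that transcript. The deposited score of a region was given by the authors' region caller. No source used here states its scale. Scores of single sites go no higher than 708.396 in either library, a value that equals the negative natural logarithm of the smallest normal double-precision number to within 0.001, so scores are compared by differences and by rank and never as folds. The rank of a site is the percentage of regions of its library with a lower score. The read depth behind a score is unknown, and many scores are repeated exactly: 73.7% of replicate 1 regions and 80.7% of replicate 2 regions share theirs with another region.

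The genes have different roles. CPVL encodes a protein related to serine carboxypeptidases, TMTC2 a membrane protein of the endoplasmic reticulum that takes part in O-mannosylation, ARHGAP15 a GTPase-activating protein for Rac, ADCY2 an adenylyl cyclase that makes cyclic AMP, and ZFHX3 a transcription factor with zinc fingers and homeodomains. Their RefSeq spans are also unlike. CPVL spans 200.8 kb (chr7:28994636-29195451, minus strand), TMTC2 spans 448.0 kb (chr12:82686906-83134866, plus strand), ARHGAP15 spans 638.9 kb (chr2:143129419-143768352, plus strand), ADCY2 spans 433.9 kb (chr5:7396138-7830081, plus strand) and ZFHX3 spans 1109 kb (chr16:72782885-73891930, minus strand). All are long: 93.1% of protein-coding genes are shorter than CPVL and 99.7% are shorter than ZFHX3, so "mid-length" fits them only beside the longest genes of the genome. Exons were not used here, so no site is called intronic or exonic.

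CPVL, TMTC2, ARHGAP15 and ZFHX3 each held 4 identical sites and ADCY2 held 3. Among the 1334 protein-coding genes between the lengths of CPVL and ZFHX3, 25.7% held at least 1 identical site, 1.27% (17 genes) at least 3 and 0.300% (4 genes) at least 4. The last 4 are CPVL, TMTC2, ARHGAP15 and ZFHX3. ADCY2 was 1 of 13 genes of that length range with exactly 3, and 65 genes lay just below with 2. The 3 other protein-coding genes with 4 or more were longer than ZFHX3. In number of identical sites per 100 kb, CPVL had 1.99, TMTC2 0.893, ADCY2 0.691, ARHGAP15 0.626 and ZFHX3 0.361, while the genes of the length range had 0.0886 when pooled. By this density CPVL had rank 4 and ZFHX3 rank 16 among the 33 protein-coding genes with 3 or more identical sites. These densities follow from the choice of the genes and from their lengths.

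**Figure D1:**
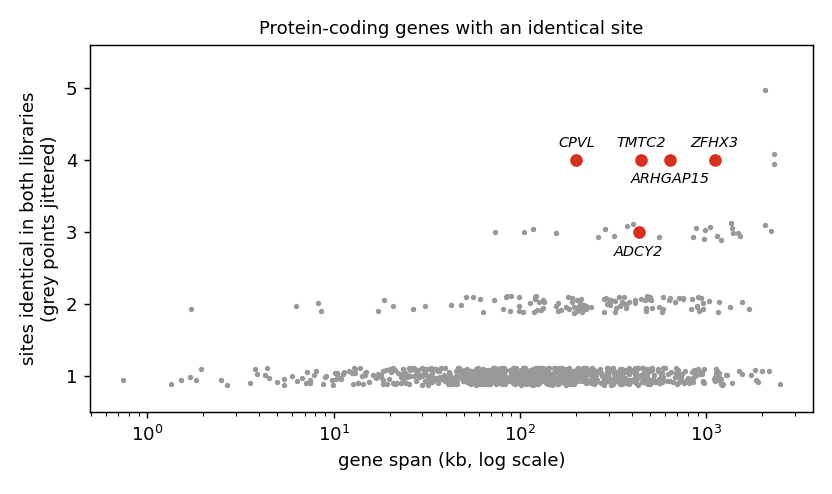
Number of sites identical in both libraries (vertical axis, grey points jittered) against the RefSeq span in kb (log axis) for each protein-coding gene with at least 1 such site. CPVL, TMTC2, ARHGAP15 and ZFHX3 (red) sit at 4 and ADCY2 at 3, the values they were chosen by, and the grey points at 4 or more lie to the right of ZFHX3.

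CPVL carried its sites entirely on the strand opposite to the gene. All 5 of its regions, 4 in both libraries and 1 in replicate 1 only, lay on the plus strand, while CPVL is read from the minus strand (0 of 4 identical sites on the gene's strand, exact 95% interval 0 to 60.2%). The strongest site, at 29123590, was at the score ceiling of 708.396 in both libraries. The site at 29028855 scored 115.8 in replicate 1 and 269.1 in replicate 2. The site at 29051263 scored 47.9 and 79.3. The site at 29073023 scored 27.7 and 60.1, so the libraries ordered the 4 sites alike and each of the 3 below the ceiling was higher in replicate 2. The region found in replicate 1 alone, at 29091816, had the lowest score of the gene, 14.5.

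The CPVL sites were the most closely spaced, with gaps of 22.4, 21.8 and 50.6 kb between identical sites, and the replicate 1 region divided the last of these into 18.8 and 31.8 kb. Like the densities above, this spacing depends on the choice of the genes and on length, CPVL being the shortest of them. The identical sites covered 94.7 kb of the gene, from 71.9 to 166.6 kb from its 5′ edge, and all lay downstream of the 3 CPVL start sites in the RefSeq promoter table. The plus-strand sites went on beyond the gene. Identical sites lay 17.9 kb (28976785, scores 39.7 and 138.6) and 36.3 kb (28958371, scores 54.6 and 107.0) past the 3′ edge of CPVL, where no gene of the table lies. Together these were 6 identical plus-strand sites over 165.2 kb, and neither library had a minus-strand region among them. That stretch was bounded by the sites themselves after they were seen, and no share over like stretches was counted. The lack of minus-strand regions there is thus a description only. The ceiling site was the farthest downstream of the 6 sites on their own strand. It also lies in the span of LOC128966558, a long noncoding RNA gene of the plus strand (chr7:29122435-29128172), upstream of that gene's listed start.

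**Figure D2:**
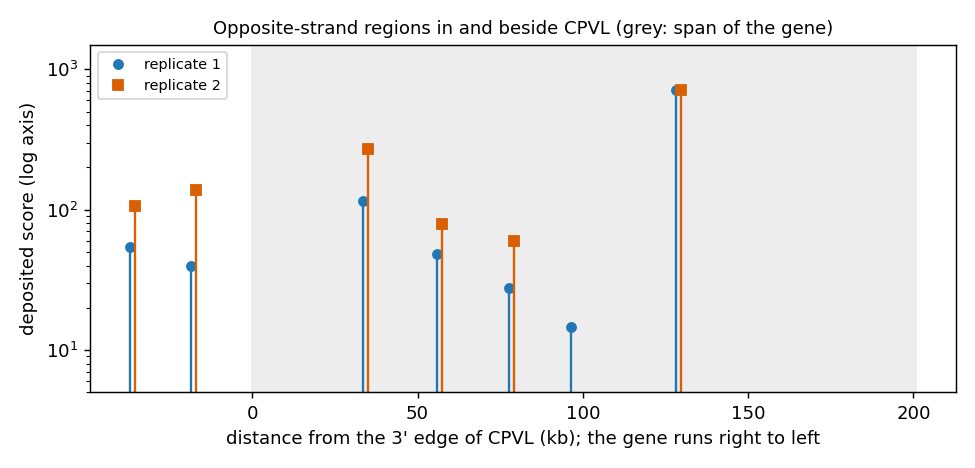
Deposited score (log axis) of each plus-strand region in CPVL and in the stretch just beyond its 3′ edge, against the distance from that edge in kb, for replicate 1 (blue circles) and replicate 2 (orange squares); symbols of a site are shifted slightly apart for clarity. CPVL (grey) runs from right to left, opposite to the sites. The site at the ceiling of 708.396 is the rightmost, and the single blue stem is the region found in replicate 1 only.

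ZFHX3 showed the reverse arrangement on strand. All 4 of its regions lay on the minus strand, which is the gene's own (4 of 4, exact 95% interval 39.8 to 100%), and each was found in both libraries. Its scores differed most in rank between the libraries, with a median absolute difference of 44.1 percentage points against 1.27 to 16.2 in the 4 other genes. The site at 72957837 scored 7.99 in replicate 1 and 173.0 in replicate 2. The site at 73298249 scored 4.87 and 47.1. The site at 73409730 scored 26.9 and 58.0, and the site at 73489146 scored 12.3 and 2.28, so 3 sites were higher in replicate 2 and 1 was lower. The rank of the first of these went from 15.9% in replicate 1 to 90.5% in replicate 2, a gap of 74.6 percentage points that 16 of the 2443 identical sites of the series reached or exceeded. The rank of the second went from 9.73% to 70.8%, a gap reached by 63 sites. No ZFHX3 site was among the top 5% of scores of both libraries.

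The ZFHX3 sites were far apart, with gaps of 79.4, 111.5 and 340.4 kb. The promoter table lists 4 start sites for the gene, at 73891930, 73144447, 73059021 and 73048128. The site at 72957837 lay downstream of all of them, 90.3 kb from the nearest. The 3 others lay between 402.8 and 593.7 kb from the 5′ edge, upstream of every listed start but the first, so that of the listed starts only the most distal one precedes them. The site at 73409730 also lay in the span of LOHAN2, a long noncoding RNA gene of the plus strand, and thus opposite to LOHAN2. Within 400 kb beyond either edge of ZFHX3, replicate 1 had 1 region and replicate 2 had 0.

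TMTC2 held sites on both strands, mostly opposite to the gene. Of its 4 identical sites, 1 lay on the plus strand of the gene and 3 on the minus strand (exact 95% interval for the gene's strand 0.631 to 80.6%). The minus-strand site at 82937949 was the strongest, with 627.8 in replicate 1 and the ceiling of 708.396 in replicate 2. The minus-strand site at 83115661 scored 66.5 and 35.0. The minus-strand site at 82811838 scored 24.6 and 18.0, and the plus-strand site at 82875891 scored 27.7 and 79.3. The site on the gene's strand was thus higher in replicate 2, and the 2 weaker opposite-strand sites were lower. The site at 83115661 lay 95.7% of the way along the gene, after a gap of 177.7 kb without a region in either library.

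TMTC2 also had 3 regions that did not recur. Replicate 1 alone had 82738663 on the minus strand (score 17.9) and 82928403 on the plus strand (7.35), and replicate 2 alone had 82752182 on the minus strand (4.77). The plus-strand region at 82928403 lay 9.55 kb from the strong minus-strand site, the shortest distance between regions on opposite strands in the 5 genes. The scores 27.7 of TMTC2 and 27.7 of CPVL in replicate 1 are the same deposited value, 27.6684, which 24 regions of that library carry, and 259 regions of replicate 2 carry the 18.0 of 82811838. Equal scores thus recur across regions throughout a library.

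ARHGAP15 was the mirror image of TMTC2 on strand, with 3 of its 4 identical sites on the plus strand of the gene (exact 95% interval 19.4 to 99.4%). The single minus-strand site, at 143318541, was the strongest, with 403.9 in replicate 1 and 553.1 in replicate 2. Of the plus-strand sites, 143527469 scored 38.4 and 65.1. The site at 143435431 scored 21.4 and 20.8, close to the library medians of 21.4 and 21.3. The site at 143554565 scored 23.0 in replicate 1 and 3.91 in replicate 2, where its rank fell by 44.0 percentage points. The widest difference in score between the libraries was at the minus-strand site, by 149.1, and the widest difference in rank was at 143554565.

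The identical sites of ARHGAP15 lay between 189.1 and 425.1 kb from the 5′ edge, with gaps of 116.9, 92.0 and 27.1 kb. Replicate 1 alone had 143493212 on the minus strand (score 23.0), and replicate 2 alone had 143431222 on the plus strand (9.73) and 143671269 on the minus strand (21.6). The region at 143431222 was 4.21 kb from the identical site at 143435431, the shortest gap between any regions in the 5 genes. The region at 143671269 also lay in ARHGAP15-AS1, an antisense long noncoding RNA gene of the minus strand, and so on the strand of that gene.

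ADCY2 held 3 identical sites, 2 of them on the plus strand of the gene (exact 95% interval 9.43 to 99.2%), and 2 of them strong. The minus-strand site at 7762753 was at the ceiling of 708.396 in both libraries. The plus-strand site at 7713491 scored 439.1 in replicate 1 and 331.5 in replicate 2. The plus-strand site at 7634256 scored 32.6 and 7.89, which moved it from a rank of 65.6% to 13.6%. No ADCY2 site was higher in replicate 2. A minus-strand region at 7827110 was found in replicate 2 only, with a score of 6.62, and lay 99.3% of the way along the gene. The gaps between identical sites were 79.2 and 49.3 kb, and the first site lay 238.1 kb from the 5′ edge.

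**Figure D3:**
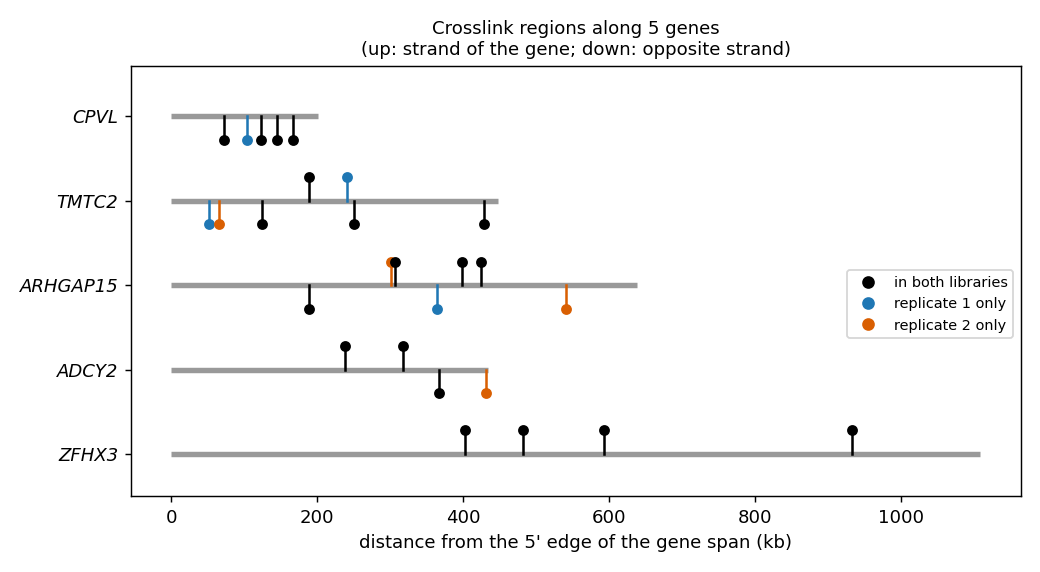
Crosslink regions along the 5 gene spans (grey bars), drawn from the 5′ edge of each gene in kb, with stems up for the strand of the gene and down for the opposite strand. Black marks the 19 sites found in both libraries, blue the 4 found in replicate 1 only and orange the 4 found in replicate 2 only. All CPVL stems point down and all ZFHX3 stems point up.

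Over the 5 genes, 10 identical sites lay on the strand of the gene and 9 on the opposite strand (52.6%, exact 95% interval 28.9 to 75.6%, which covers counting error only). In the series, 42.8% of the 949 identical sites in protein-coding genes of known strand were on the strand of the gene, as were 45.7% of such regions in replicate 1 and 45.8% in replicate 2. These shares lie within the interval, which treats the sites as independent and was not used as a test. With the regions of single libraries included, 12 of 27 lay on the strand of the gene. By gene the number went from 0 of 4 in CPVL to 4 of 4 in ZFHX3. Of 22 other protein-coding genes with 3 or more identical sites and a known strand, 3 had all of them on 1 strand, namely BIRC6, NDST4 and AUTS2, and in each that was the opposite strand. These 3 were named after their values were seen, and the sites of a gene share a locus, so no test was made over sites.

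Of the 19 sites, 5 were in the top 5% of scores in both libraries (7.29% of the identical sites of the series were), with 1 each in CPVL, TMTC2 and ARHGAP15 and 2 in ADCY2. The strongest site of each of these 4 genes was on the strand opposite to the gene, and the second ADCY2 site was on its own. In the series, 44.1% of 68 such sites in protein-coding genes of known strand lay on the strand of the gene. The exact 95% interval for 1 of 5 is 0.505 to 71.6%, too wide to tell the shares apart. The ceiling was reached in both libraries by 2 of the 19, against 2.87% of identical sites in the series. At the other end, 7 of the 19 were below the median score in at least 1 library. The same share was not counted over the series, so whether this is many or few is not known. In score, 10 sites were higher in replicate 2, 7 were lower and 2 were equal at the ceiling, and in the series 58.0% were higher in replicate 2. The median absolute difference in rank was 15.0 percentage points over the 19 sites and 11.5 over the series.

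**Figure D4:**
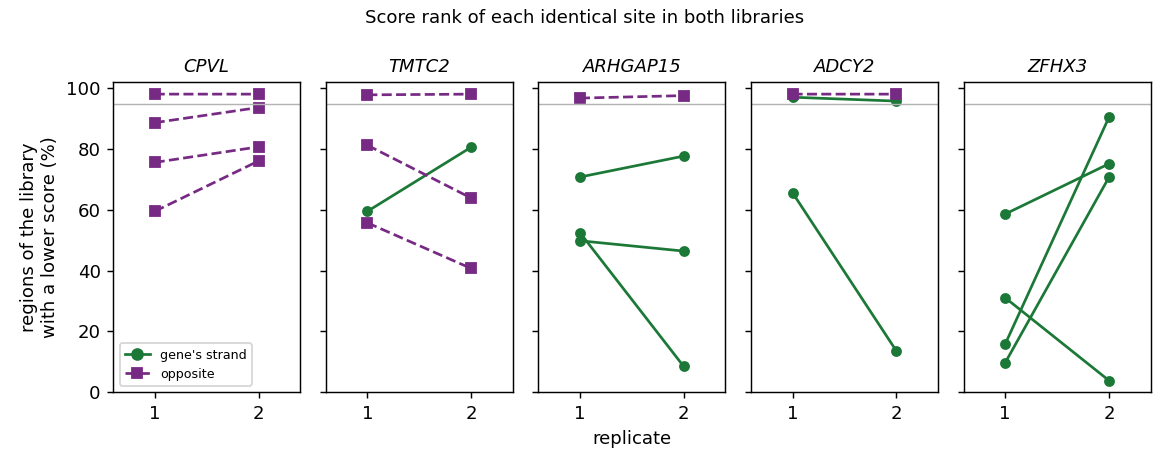
Rank of each identical site in replicate 1 and replicate 2, as the percentage of regions of the library with a lower score, by gene. Green circles mark sites on the strand of the gene and purple squares sites on the opposite strand, and the grey line marks 95%. In CPVL, TMTC2, ARHGAP15 and ADCY2 a purple site stays above the line in both libraries, whereas no ZFHX3 site does. Lines of sites cross in TMTC2, ARHGAP15 and ZFHX3.

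The regions found in 1 library numbered 8. Those of replicate 1 scored 7.35 to 23.0 and those of replicate 2 scored 4.77 to 21.6, and 1 in each library reached its median, at 143493212 (rank 52.5%) and 143671269 (rank 50.1%). In the series, 20.2% of replicate 1 regions and 35.3% of replicate 2 regions without an identical site did so. None had another region of either library closer than 4.21 kb. The lowest scores of identical sites were 4.87 in replicate 1 and 2.28 in replicate 2, both in ZFHX3 and below those of every region of the 5 genes found in that library alone. All 27 regions were single bases with 1 site each. So were nearly all regions of the libraries: 4165 of 4204 in replicate 1 and 5976 of 5995 in replicate 2 were single bases.

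The 19 identical sites lay between 27.9% (in TMTC2) and 95.7% (also in TMTC2) of the way along the spans, counted from the 5′ edge. Measured instead from the nearest listed start upstream of it on the gene's strand, the closest site was the ceiling site of CPVL, 22.9 kb from the start at 29146537, and the farthest was the ZFHX3 site at 73298249, 593.7 kb from the most distal start. The median gap between neighbouring identical sites was 71.6 kb over 14 gaps, with a range of 21.8 to 340.4 kb. None of the regions had a partner on the opposite strand closer than 9.55 kb.

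Among the relatives of the 5 genes, only ARHGAP and adenylyl cyclase genes held identical sites. The other serine carboxypeptidase genes CTSA and SCPEP1, the genes TMTC1, TMTC3 and TMTC4, and ZFHX2 and ZFHX4 held no region in either library. In the same order of families their lengths were 7.49 to 28.6 kb, 57.6 to 283.9 kb and 35.1 to 186.0 kb. Of 35 other ARHGAP genes, 11 held a region, 6 held one in both libraries and 4 held 1 identical site each, where 13.4%, 5.74% and 5.01% of all protein-coding genes, whatever their length, did so. The 4 were ARHGAP24 (85902628, scores 29.2 and 121.9), ARHGAP30 (161052772, 17.8 and 15.3), ARHGAP32 (129057693, 16.3 and 80.8) and ARHGAP42 (100751481, 305.3 and 54.8). ARHGAP22 and the readthrough gene ARHGAP11A-SCG5 had regions in both libraries at different bases. The readthrough gene is counted among the 11 and the 6, while ARHGAP11A itself is not among the 11. ARHGAP24 is longer than ADCY2, at 527.5 kb, and held 1 region in replicate 1 and 4 in replicate 2. Of 9 other adenylyl cyclase genes, ADCY9 held 1 identical site (4001770, scores 19.7 and 34.4) and ADCY5 held 1 region, in replicate 2. Pooled, the other ARHGAP genes had 0.0777 identical sites per 100 kb, from 4 sites, and the other adenylyl cyclase genes 0.0944, from 1 site. All genes in the length range, with the 5 chosen genes among them, had 0.0886. Most of these relatives are shorter than that range, with median lengths of 116.3 and 104.7 kb. With so few sites, the densities are descriptions only.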

How the data were processed

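The 2 irCLIP libraries each have a deposited list of scored crosslink regions, called per library. The deposited score is the sum of the site scores of a region, as checked on the values to within 0.01. The submitters' processing notes name hg38, STAR 2.5.2, Bowtie2 2.3.5, UMI-tools, deepTools and SAMtools, with no role for any of them. The region caller, and what it did with reads of several alignments, were not given in the sources used here. The latter decides whether sites in repeated sequence are listed, and where. Positions were made 1-based and placed in RefSeq spans of GRCh38.p14 (59716 genes) by at least 1 base. Gene strand and start sites came from the RefSeq promoter table, which matched 15843 of 20050 protein-coding genes. No genome or exon annotation was used, so the planned intron, repeat and site sequence results were not run. Scores were planned to be compared as log2 ratios and were compared as differences instead, because their scale may be logarithmic. Counting was tested on simulated data. Intervals are exact 95% binomial (Clopper-Pearson) and treat sites as independent, although the sites of a gene share a locus. Named genes are the 5 genes, family members with a region in both libraries, and genes over their sites. Others are marked, or follow from a count. Members and lists were chosen with earlier results of these data known. Python 3.11.15, pandas 2.3.3 and SciPy 1.17.1 were used.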

Additional observations from a re-analysis of the deposited data

How the results depend on the processing

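The 27 regions and 19 identical sites stayed within 1.5 times of these counts under most alternatives. Matching by an overlap of 1 base, within 10 or 100 bases on the same strand, or within 100 bases on either strand gave 19 sites each, as did spans extended by 10 kb. Spans extended by 400 kb, a setting chosen after seeing the data, gave 24. Limiting to sites at or above the median score in both libraries left 12, because the limit removes sites. The share on the strand of the gene was 52.6%. It was 47.8% for all regions of either library alone and 33.3% for the 12 sites at or above the median score. Both lie within the interval of 28.9 to 75.6%, but they reuse the sites behind the 52.6%. Lying within it is thus no independent check. The share was lower among the 12 higher-scoring sites, but the series share at that limit was not counted. In protein-coding genes of known strand, the series share was 42.8% for all identical sites. It was 44.1% for those in the top 5% of both libraries. Whether the share changes with score was not tested. The median gap of 71.6 kb became 85.7 kb for sites on the strand of the gene and 55.1 to 64.2 kb when 1 library was left out, which uses all regions of the other. The median score difference, replicate 2 minus replicate 1, was 26.8 and became 28.9 without ceiling sites. Over the identical sites of the series it was 6.52. The 26.8 is the smallest of the 10 positive differences among the 19 and comes just above 2 differences of 0, so it is not a stable value. With unknown read depth, a region missing from 1 library is not shown to be absent there.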
